A study of Mus musculus with 27 samples.

Results

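Polysialic acid, the sugar coat of migrating neuroblasts, and other surface proteins of these cells were followed in 9 mouse genes of adult neurogenesis, out of 45195 genes counted (44548 with a symbol). The genes were chosen by name, as the count rows whose Ensembl ID carries the symbol St8sia2, St8sia4, Ncam1, Ncam2, Cd24a, Prokr2, Igfbpl1, L1cam or Cxadr, and all 9 were found and passed the filter on low counts. In the adult brain, stem cells of the subventricular zone (SVZ) next to the lateral ventricle give rise to neuroblasts, which travel in chains to the olfactory bulb (OB) and become interneurons there. The sialyltransferases encoded by St8sia2 and St8sia4 build chains of sialic acid on the neural cell adhesion molecule NCAM, and this polysialic acid lowers adhesion and lets neuroblasts move. Cd24a encodes a small mucin-like surface protein of neuroblasts and of ependymal cells. Prokr2 encodes the receptor for prokineticin 2, a ligand that guides mouse neuroblasts into the olfactory bulb. Igfbpl1 encodes a secreted relative of the insulin-like growth factor binding proteins. L1cam and Cxadr, like Ncam1 and its relative Ncam2, encode adhesion proteins with immunoglobulin domains.

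Total mRNA was measured with 3 libraries a stage. The SVZ gave stem cells, called NSC, and the early stage of neuroblasts, called ENB, and the OB gave the late stage of neuroblasts, called LNB, and neurons, called Neuron. Each library held 200 to 500 eYFP-positive cells sorted from the tissue of 1 to 2 mice. For ribosome-bound mRNA the HA tag was precipitated from whole tissue with an antibody (IP), in 3 libraries of LNB and 2 of every other stage. The no-HA controls, 3 libraries from the SVZ and 3 from the OB, are the same precipitation from tissue without the HA tag, and 2 of those from the SVZ are also labelled Cre-. All groups came from male mice aged 8 to 12 weeks on a C57BL/6 background, of the TiCRY line (Tlx-CreER-Rpl22.HA-eYFP) or the DiCRY line (Dcx-CreER-Rpl22.HA-eYFP), and tamoxifen was given by gavage at 200 mg/kg in 2 to 3 doses. Library names carry Ticry for NSC, Dicry for ENB and LNB and Dxc4wpi for Neuron. Other names read TICRY4d for the NSC IPs and the first SVZ control, DICRY3dp for the ENB IPs and DICRY3dpi for the LNB IPs and the first 2 OB controls, and Dxc4wpi also stands on the Neuron IPs and the third OB control. The labels do not spell these words out. Cre under Tlx (Nr2e1) or Dcx decides which cells are labelled, so a stage here means recombined cells of a given line and tissue, and Dcx is itself a neuroblast gene. Total mRNA of sorted cells and IPs of unsorted tissue differ in more than ribosome binding.

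The pair of polysialyltransferase genes parted in Neuron libraries and OB controls, but not in LNB libraries. Prokr2 was among the members whose levels changed most. The promoters of these 3 genes are therefore shown before the values. Each is 300 bases long, from 250 bases before to 50 bases after a transcription start, on the minus strand of GRCm38.p6, from RefSeq. Capitals mark the 2 searched motifs that were found, CANNTG, the E-box core bound by basic helix-loop-helix factors, and GGGCGG, the GC box of the Sp family. A GC box that lies on the opposite strand reads CCGCCC in these lines.
St8sia2, chr7:74013633-74013932: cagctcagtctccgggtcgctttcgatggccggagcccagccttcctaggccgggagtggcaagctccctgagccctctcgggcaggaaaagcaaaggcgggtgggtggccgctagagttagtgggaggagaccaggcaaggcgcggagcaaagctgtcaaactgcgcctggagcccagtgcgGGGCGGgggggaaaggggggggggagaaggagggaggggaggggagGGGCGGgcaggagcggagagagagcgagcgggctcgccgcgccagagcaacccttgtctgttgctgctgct
St8sia4, chr1:95667545-95667844: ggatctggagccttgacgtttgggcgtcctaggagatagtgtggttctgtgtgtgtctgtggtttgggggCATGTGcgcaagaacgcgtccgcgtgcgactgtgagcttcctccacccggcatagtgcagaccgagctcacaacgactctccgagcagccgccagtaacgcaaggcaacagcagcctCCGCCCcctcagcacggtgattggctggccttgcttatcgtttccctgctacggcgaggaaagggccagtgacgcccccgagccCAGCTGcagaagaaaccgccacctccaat
Prokr2, chr2:132385398-132385697: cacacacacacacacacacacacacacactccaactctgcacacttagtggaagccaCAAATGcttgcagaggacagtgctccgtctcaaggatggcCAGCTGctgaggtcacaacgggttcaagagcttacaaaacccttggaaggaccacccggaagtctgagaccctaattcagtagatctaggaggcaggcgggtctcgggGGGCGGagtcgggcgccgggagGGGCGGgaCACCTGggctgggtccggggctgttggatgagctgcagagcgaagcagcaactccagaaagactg
The St8sia2 window held GGGCGG at 2 places and no CANNTG. In the St8sia4 window CANNTG was found at 2 places and GGGCGG at 1, and in the Prokr2 window CANNTG at 3 and GGGCGG at 2. Both motifs are common: of 32851 RefSeq promoters of this length, 72.3% held CANNTG and 35.7% held GGGCGG on either strand. TAATTA (5.29% of all), ACAAAG (18.7%), AACAAT (10.7%) and TATAAA (13.6%) were searched on both strands and were in none of the 3 windows. The 3 windows had 68.7%, 61.3% and 59.0% G and C in this order, with a median of 52.7% over all promoters. A match of letters is a description and not a bound site.

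Library totals ran from 5225929 to 15994635 counts in total mRNA, from 6325479 to 13316334 in the IPs and from 5960357 to 9120659 in the controls. Levels are CPM (counts scaled to library size) with TMM scale factors, set separately for total mRNA and for the 15 precipitates, and TPM, which also takes transcript length into account, is used to compare genes. The summed level of 10 migrating neuroblast genes (Dcx, Tubb3, Sox11 and others) was 3847 to 4770 CPM in NSC, 12470 to 13690 in ENB, 5471 to 12570 in LNB and 1503 to 1683 in Neuron total mRNA, so the NSC libraries also held neuroblast transcripts. The LNB total libraries stood apart from each other: 8 mature astrocyte genes summed to 7028, 1033 and 9973 CPM in replicates 1, 2 and 3, and the 10 neuroblast genes to 7917, 12570 and 5471 CPM. Results that use LNB total mRNA are therefore also given with replicate 2 as the lone LNB library, which is assumed to vary like the other groups, a choice made after the data were seen. In Neuron total mRNA the astrocyte genes summed to 1035 to 5078 CPM. In such bulk samples fewer cells of a type and less RNA per cell cannot be told apart.

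Per transcript length, Cd24a, Ncam1 and Igfbpl1 were the most abundant members in NSC, ENB and LNB total mRNA. Cd24a had a mean level of 278 TPM in NSC, 1264 in ENB, 844 in LNB and 55.4 in Neuron. Ncam1 had 148, 449, 483 and 203 TPM and Igfbpl1 61.7, 319, 318 and 8.93 TPM in the same order of stages. In Neuron total mRNA the order changed, with Ncam1 first and L1cam, at 55.5 TPM, level with Cd24a.

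**Figure D1:**
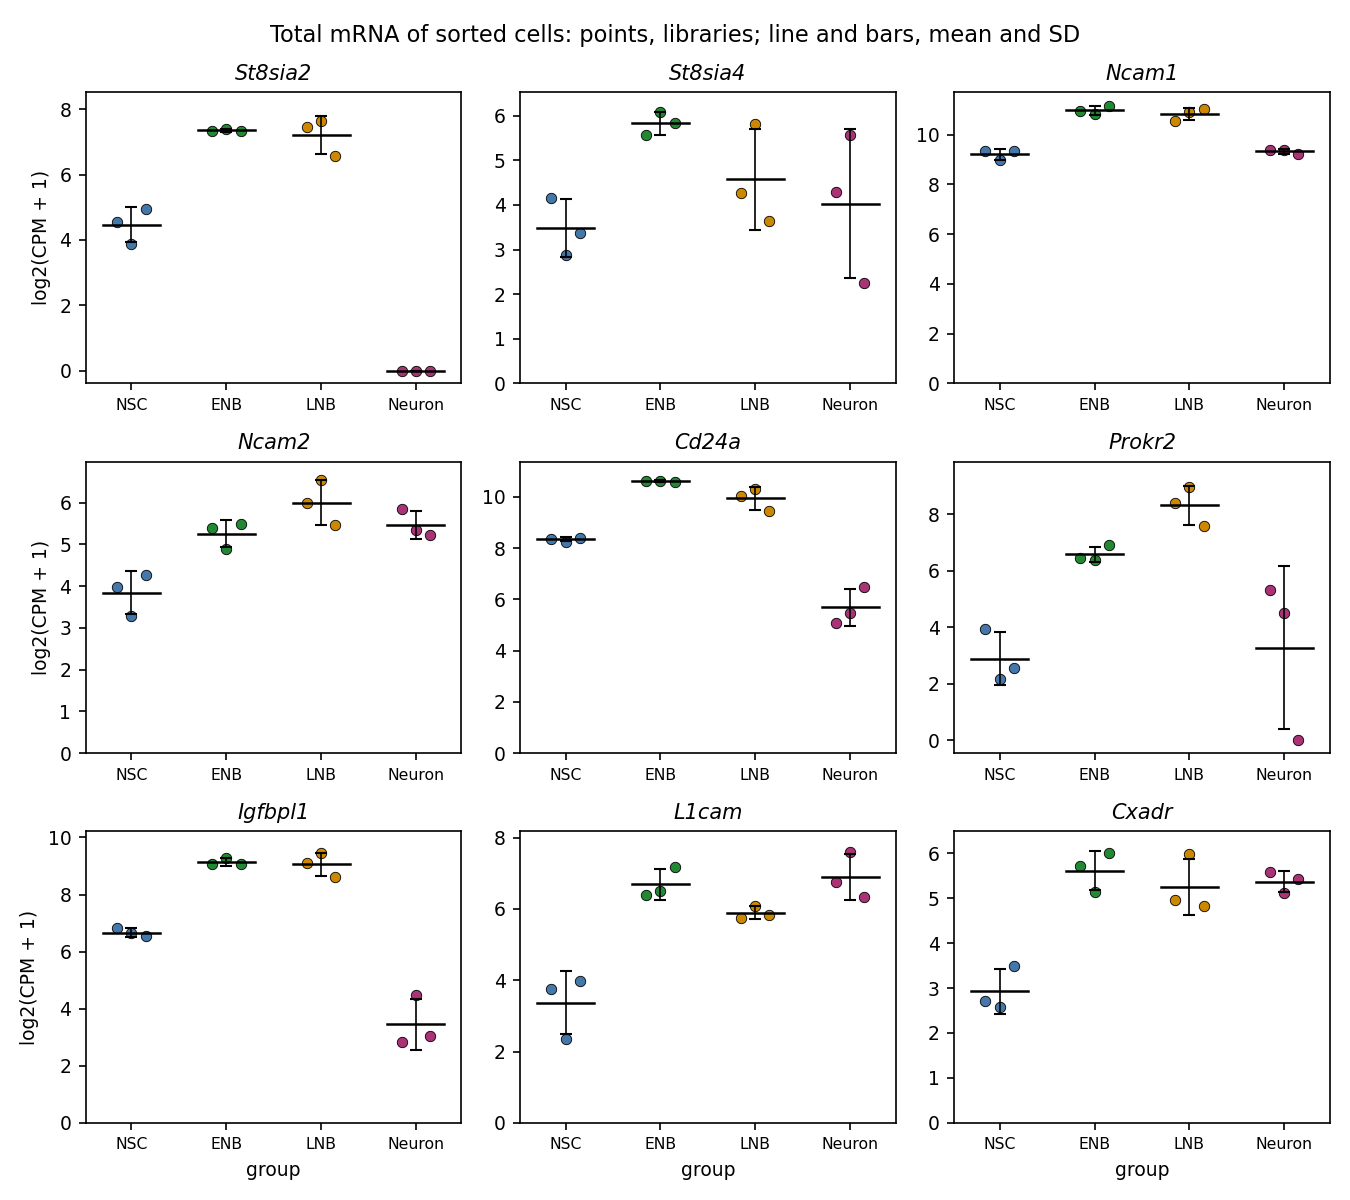
Level of each gene in total mRNA of sorted cells, as log2(CPM + 1), in NSC, ENB, LNB and Neuron. Points are the 3 libraries of a group, the line is their mean and the bars the SD. St8sia2, Cd24a and Igfbpl1 have their lowest libraries in Neuron, whereas L1cam, Cxadr and Ncam2 have theirs in NSC.

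ENB against NSC asks which surface genes accompany the passage from stem cell to neuroblast. All 9 members were higher in every ENB library than in every NSC library, and 8 of the 9 passed the test, all higher, where 10.1% of the 17592 genes tested were called and 4.95% were called higher. Lower calls made up 5.12%, and groups failed to overlap in 43.3% of all genes. The median change of the members was 2.48 on the log2 scale, beside -0.01 over all genes.

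Among the polysialic acid genes, St8sia2 (ENSMUSG00000025789, GRCm38.p6 chromosome 7, 73939119 to 74013727) had 161, 168 and 159.7 CPM in ENB, against 22.6, 13.7 and 29.7 CPM in NSC. The 3 ENB libraries lay close together and far above NSC, a log2 change of 2.89 ± 0.36 (SE; adjusted p = 0.00226). St8sia4 (ENSMUSG00000040710, chromosome 1, 95587682 to 95667717) had 46.7, 67.0 and 55.9 CPM in ENB, against 17.0, 6.32 and 9.42 CPM in NSC. The groups did not overlap, and the change of 2.37 ± 0.79 missed the threshold in edgeR (adjusted p = 0.0776) but passed in DESeq2 (adjusted p = 0.0182). Their acceptor Ncam1 (ENSMUSG00000039542, chromosome 9, 49502129 to 49799393) had 1955, 1826 and 2281 CPM in ENB, against 643, 500.3 and 642 CPM in NSC. It rose by 1.76 ± 0.20 (adjusted p = 0.000933), a smaller change than that of St8sia2 in a gene that was already abundant in NSC. Ncam2 (ENSMUSG00000022762, chromosome 16, 81200697 to 81624290), best known from olfactory sensory axons, had 41.0, 28.6 and 43.7 CPM in ENB, against 14.7, 8.76 and 18.4 CPM in NSC. Its rise of 1.44 ± 0.37 (adjusted p = 0.0314) was the smallest of the 8. Without NSC replicate 1, 2 or 3 or ENB replicate 1 or 3 its adjusted p was between 0.052 and 0.142.

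The remaining surface genes rose by 2.28 to 3.64 on the log2 scale. Cd24a (ENSMUSG00000047139, chromosome 10, 43579169 to 43584265) had 1598, 1589 and 1520 CPM in ENB, against 332, 305 and 336 CPM in NSC. Both groups were tight, and the change was 2.28 ± 0.34 (adjusted p = 0.00282). Ependymal cells carry Cd24a too. Here 10 ependymal markers summed to 22.4 to 33.3 CPM in ENB, against 72.9 to 101 CPM in NSC, and 5 of them (Tmem212, Ccdc153, Dynlrb2, Rsph1, Cfap126) were at 0 in ENB. Dnah11 went the other way, with means of 22.6 CPM in ENB and 17.6 CPM in NSC, and made up most of the ENB sum. The part of ependymal cells in the Cd24a values was not tested. Igfbpl1 (ENSMUSG00000035551, chromosome 4, 45809507 to 45826827) had 534, 623 and 536 CPM in ENB, against 113, 99.2 and 91.6 CPM in NSC, a change of 2.48 ± 0.40 (adjusted p = 0.00425). L1cam (ENSMUSG00000031391, chromosome X, 73853778 to 73880838), a protein of growing axons, had 82.5, 89.1 and 145 CPM in ENB, against 12.6, 4.12 and 14.8 CPM in NSC. With 3.33 ± 0.48 (adjusted p = 0.00258) it had the second largest change of the set. Cxadr (ENSMUSG00000022865, chromosome 16, 78301226 to 78359785), the coxsackievirus and adenovirus receptor of cell junctions, had 51.2, 34.1 and 63.0 CPM in ENB, against 5.57, 4.95 and 10.3 CPM in NSC. It rose by 2.84 ± 0.44 (adjusted p = 0.00328). Prokr2 (ENSMUSG00000050558, chromosome 2, 132369705 to 132385502) had 86.4, 82.4 and 118 CPM in ENB, against 14.4, 3.51 and 4.82 CPM in NSC. Its change of 3.64 ± 1.03 (adjusted p = 0.0441) was the largest and also the least certain, since leaving out any of the 6 libraries gave an adjusted p of 0.0709 to 0.147.

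Other transcripts moved with these genes. Of the 10 migrating neuroblast genes 9 were higher in ENB, and of 10 stem cell genes 7 were lower. The 8 mature astrocyte genes summed to 186 to 980.0 CPM in ENB, against 4938 to 6192 CPM in NSC, and 5 of them were lower. The part of the astrocyte transcripts in the members' changes was not tested. ENB and NSC libraries carry different second index sequences in part. Within the 2 indexes present in both groups the members had median log2 changes of 2.83 and 2.31. That all 9 were higher there follows from the lack of overlap between the groups and is no separate result. With the second index as a term 6 of the 8 calls were kept in edgeR, and Ncam2 and Prokr2 missed (adjusted p = 0.0797 and 0.0792).

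In LNB against ENB, which sets neuroblasts of the bulb against those of the SVZ, no member passed. In edgeR 0 of 9 were called, where 3.77% of all genes were called, 2.80% higher and 0.966% lower. At an unadjusted p under 0.05 there was 1 (Ncam2), and DESeq2 called 0. St8sia2 had 174, 199 and 93.3 CPM in LNB, against 161, 168 and 159.7 CPM in ENB, a log2 change of -0.07 ± 0.34. St8sia4 had 18.1, 55.6 and 11.4 CPM in LNB, against 46.7, 67.0 and 55.9 CPM in ENB, a change of -0.99 ± 0.76. For both, LNB replicate 2 was the highest library and replicate 3 the lowest. Ncam1, with 1491, 1913 and 2100 CPM in LNB, differed by -0.14 ± 0.20, and Igfbpl1, with 550.0, 698 and 395 CPM in LNB, by -0.04 ± 0.38.

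Groups failed to overlap for 3 members, where this held for 22.0% of all genes. Prokr2 had 337, 496 and 191 CPM in LNB, against 86.4, 82.4 and 118 CPM in ENB, all LNB libraries lying above all ENB libraries, a change of 1.84 ± 0.94 (adjusted p = 0.333). Cd24a had 1060, 1285 and 708 CPM in LNB and lay below ENB, with -0.62 ± 0.32 (adjusted p = 0.336). L1cam had 52.9, 67.4 and 56.3 CPM in LNB and also lay below ENB, with -0.84 ± 0.44 (adjusted p = 0.343). Ncam2 leaned the other way, with 62.3, 92.6 and 43.5 CPM in LNB and 0.81 ± 0.37 (adjusted p = 0.26). Cxadr had 30.2, 61.9 and 27.3 CPM in LNB and differed by -0.31 ± 0.41.

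Mature astrocyte genes, 5 of 8 higher in LNB (0 of 8 with LNB replicate 2 alone), summed to 7028, 1033 and 9973 CPM in LNB, against 186 to 980.0 CPM in ENB. LNB replicate 2, with the least of them, had the highest level among the LNB libraries of every member but Ncam1. With replicate 2 as the lone LNB library 0 of the 9 were called in edgeR (8 of all genes). LNB replicates 2 and 3 come from the same animals as ENB replicates 3 and 2, and with the animal as a block 0 of the 9 were called (452 of all genes). Within the 2 second indexes shared by ENB and LNB the median change of the members was 0.12 and -0.40.

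Neuron against LNB asks what is lost or kept as neuroblasts settle and mature. The members split: 5 of 9 were lower in Neuron and passed (St8sia2, Ncam1, Cd24a, Prokr2, Igfbpl1), 0 were higher in edgeR (1, L1cam, at an unadjusted p under 0.05 and in DESeq2), and St8sia4, Ncam2 and Cxadr overlapped. In all genes 14.7% were called, 5.33% higher and 9.34% lower. Groups did not overlap for 6 members and for 31.2% of all genes. The median change of the members was -1.51, beside -0.18 over all genes. That median over all genes is -0.01 with the other set of scale factors (RLE), under which the same number of members passed.

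St8sia2 was at 0 counts in all 3 Neuron libraries, against 174, 199 and 93.3 CPM in LNB. The LNB mean was 1191-fold above a floor of 3 counts over the Neuron libraries, a figure that leaves the spread in LNB out of account (adjusted p = 2.5e-05 in edgeR). St8sia4 did not pass, with 18.5, 46.4 and 3.72 CPM in Neuron, against 18.1, 55.6 and 11.4 CPM in LNB, a log2 change of -0.31 ± 0.76 and wide spread in both groups. Ncam1 had 675, 661 and 591 CPM in Neuron, against 1491, 1913 and 2100 CPM in LNB. It fell by 1.51 ± 0.20 on the log2 scale (adjusted p = 0.000658) and ended close to NSC, from which Neuron differed by 0.11 ± 0.20.

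Igfbpl1 had 6.12, 21.2 and 7.26 CPM in Neuron, against 550.0, 698 and 395 CPM in LNB, a change of -5.56 ± 0.47 (adjusted p = 6.2e-05). Cd24a had 33.3, 43.8 and 88.6 CPM in Neuron, against 1060, 1285 and 708 CPM in LNB, a change of -4.21 ± 0.37 (adjusted p = 6.63e-05). In both genes the Neuron libraries lay far below LNB and also below NSC. Prokr2 had 39.2 and 21.8 CPM in the first 2 Neuron libraries and 0 counts in the third, against 337, 496 and 191 CPM in LNB. Its change of -4.05 ± 1.04 (adjusted p = 0.0229) lost the call without LNB replicate 1, LNB replicate 2 or Neuron replicate 2 (adjusted p = 0.052, 0.0581 and 0.0629) and with LNB replicate 2 alone (adjusted p = 0.0505). With LNB replicate 2 alone the change was -1.59 for Ncam1, -4.56 for Cd24a and -5.92 for Igfbpl1. Replicate 2 had the highest LNB level of St8sia2, Cd24a and Igfbpl1. The larger falls in this setting follow from that choice and are no separate support.

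L1cam, Cxadr and Ncam2 did not pass in edgeR in either direction. L1cam had 106, 193 and 80.3 CPM in Neuron, against 52.9, 67.4 and 56.3 CPM in LNB. The groups did not overlap, but the change of 1.10 ± 0.44 missed the threshold in edgeR (adjusted p = 0.115; 0.0394 in DESeq2). Cxadr had 46.8, 33.4 and 41.9 CPM in Neuron and changed by 0.03 ± 0.41, and Ncam2 had 56.6, 39.3 and 36.5 CPM in Neuron and changed by -0.58 ± 0.36. Of the 10 migrating neuroblast genes all 10 were lower in Neuron, and of 10 mature neuron genes 7 were higher, counts that were 10 and 4 with LNB replicate 2 alone. The astrocyte genes summed to 2036, 5078 and 1035 CPM in Neuron replicates 1 to 3, and 0 of the 8 were called in edgeR (2 at an unadjusted p under 0.05, 0 in DESeq2). Of the second indexes only 1 was shared by Neuron and LNB, and on the LNB side it holds replicate 2 alone. Within it 8 of 9 members were lower, with a median change of -1.79. This repeats the setting with LNB replicate 2 alone and is no separate result.

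The ends of the lineage, Neuron against NSC, had 3 members higher and 3 lower, where 23.7% of all genes were called, 11.0% higher and 12.8% lower. Groups did not overlap for 6 members and for 46.6% of all genes. L1cam was higher by 3.59 ± 0.49 (adjusted p = 0.000381), Cxadr by 2.56 ± 0.43 (adjusted p = 0.00149) and Ncam2 by 1.67 ± 0.38 (adjusted p = 0.00775). Cd24a was lower, with -2.56 ± 0.34 (adjusted p = 0.000352), and so was Igfbpl1, with -3.13 ± 0.42 (adjusted p = 0.000358). St8sia2 was lower than in NSC too (adjusted p = 3.09e-05), with an NSC mean 169-fold above the floor of 3 counts over the Neuron libraries. Prokr2, Ncam1 and St8sia4 did not pass, Prokr2 with 1.42 ± 0.96, a value that passed without Neuron replicate 3, the library at 0 (1.98, adjusted p = 0.0306). All 3 Neuron libraries share 1 second index with 1 of the 3 NSC libraries, and with the index as a term Ncam2 missed (1.49, adjusted p = 0.0509) and the other 5 calls were kept.

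The make-up of the polysialyltransferase pair is given as a description. In TPM, St8sia2 was 73.1 ± 8.53% of the sum of St8sia2 and St8sia4 in NSC, 76.4 ± 2.09% in ENB, 88.3 ± 5.57% in LNB and 1.25 ± 2.17% in Neuron total mRNA (SD, n = 3 each). The RSEM-based TPM gave St8sia2 0.03 in Neuron replicate 3, where the raw count is 0. In the precipitates the share was 71.3% in NSC (53.3 and 89.3%), 81.2% in ENB, 78.0% in LNB and 6.18% in Neuron, while the controls had 73.1 ± 3.59% in SVZ and 17.2 ± 9.02% in OB. For the acceptors the balance moved little, with Ncam1 making up 97.1, 97.3, 95.2 and 92.1% of Ncam1 and Ncam2 from NSC to Neuron in total mRNA.

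**Figure D2:**
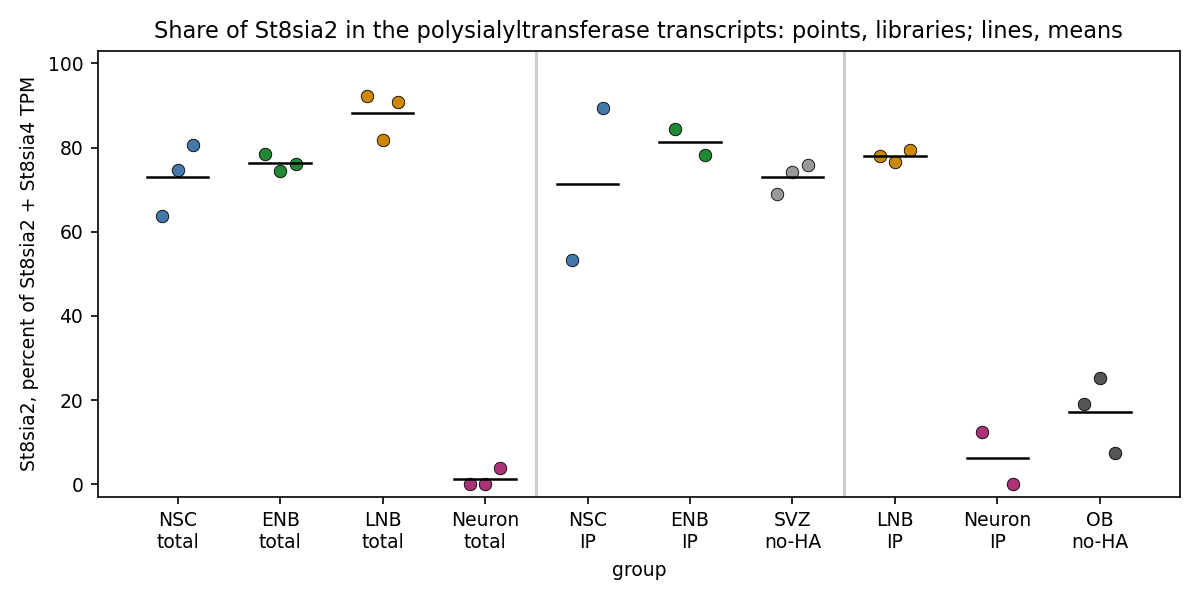
Share of St8sia2 in the summed TPM of St8sia2 and St8sia4, in percent, for total mRNA (left), SVZ precipitates with their no-HA control (middle) and OB precipitates with theirs (right). Points are libraries and lines group means. The share lies between 53.3 and 92.1% in every NSC, ENB, LNB and SVZ control library, and at or below 25.1% in Neuron and OB control libraries.

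In the IPs the first question is which members stand above the precipitate of tissue without the tag. NSC and ENB were set against the SVZ control and LNB and Neuron against the OB control, so comparisons within a tissue share their control libraries. Igfbpl1 and Cd24a were above the control in NSC, ENB and LNB, Prokr2 and Ncam1 in ENB and LNB, and St8sia2 in LNB. St8sia4, Ncam2 and L1cam passed against the control in no stage in the main edgeR fit. L1cam was lower in NSC IPs in DESeq2 and under some edgeR alternatives, given with the NSC values. In LNB 5 members were higher, where 10.1% of all genes were called, 7.00% higher and 3.06% lower, and 7 did not overlap with the control, beside 44.5% of all genes. St8sia2 had 55.9, 46.3 and 76.0 CPM in LNB IPs, against 5.10, 10.7 and 2.05 CPM in OB controls, a log2 change of 3.32 ± 0.64 (adjusted p = 0.00979; 0.0589 without LNB replicate 3). Ncam1 had 1626, 1516 and 1828 CPM in LNB IPs, against 701, 674 and 319 CPM in OB controls, and changed by 1.55 ± 0.27 (adjusted p = 0.00698).

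Cd24a had 239, 261 and 305 CPM in LNB IPs, against 39.3, 32.7 and 14.5 CPM in OB controls, a change of 3.22 ± 0.40 (adjusted p = 0.00106). Prokr2 had 259, 235 and 337 CPM in LNB IPs, against 22.2, 32.5 and 25.3 CPM in OB controls, with 3.38 ± 0.56 (adjusted p = 0.00595). Igfbpl1 had 175, 254 and 172 CPM in LNB IPs, against 19.99, 11.5 and 10.2 CPM in OB controls, with 3.85 ± 0.41 (adjusted p = 0.000762). In these 5 genes every LNB IP lay above every OB control. Among 10 migrating neuroblast genes 8 were above the control as well. Within the shared second index 8 of 9 members were higher, with a median change of 1.26. For the 7 members without overlap the direction there follows from the groups and is no separate result.

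The ENB IPs had 4 members above the SVZ control, where 1.52% of all genes were called, 0.708% higher and 0.813% lower, and 5 did not overlap with the control, beside 31.8% of all genes. Prokr2 had 45.6 and 145 CPM in ENB IPs, against 2.13, 8.26 and 4.16 CPM in SVZ controls (4.29 ± 0.64, adjusted p = 0.00283). Igfbpl1 had 59.8 and 83.2 CPM in ENB IPs, against 7.54, 6.88 and 6.17 CPM in SVZ controls (3.38 ± 0.44, adjusted p = 0.00143). Cd24a had 89.9 and 189 CPM in ENB IPs, against 25.6, 57.1 and 26.7 CPM in SVZ controls (1.94 ± 0.41, adjusted p = 0.025), and Ncam1 726 and 1056 CPM in ENB IPs, against 391, 349 and 353 CPM in SVZ controls (1.29 ± 0.29, adjusted p = 0.0357). ENB replicate 2 was the higher library in all 4 genes, and without it 0 members and 1 gene overall were called, with adjusted p of 0.0617 for Igfbpl1, 0.0916 for Prokr2, 0.417 for Ncam1 and 0.423 for Cd24a. Ncam1 also missed without any SVZ control library (0.0733 to 0.112), and Cd24a without SVZ replicate 1 or 3 (0.0966 and 0.114). With the second index as a term Ncam1 and Cd24a missed (0.164 and 0.127). The 1 shared index holds only ENB replicate 2 and SVZ replicate 1. Within it 8 of 9 members were higher, with a median of 1.43, which is no separate result. ENB replicates 1 and 2 had 1716 and 3928 CPM of the 10 neuroblast genes, against 563 to 691 CPM in the SVZ controls.

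In the NSC IPs 2 members were higher than the SVZ control and 1 lower, where 15.3% of all genes were called, 8.75% higher and 6.59% lower, and 5 did not overlap with the control, beside 47.1% of all genes. Cd24a had 158 and 252 CPM in NSC IPs, against 25.6, 57.1 and 26.7 CPM in SVZ controls (2.49 ± 0.42, adjusted p = 0.00138). Igfbpl1 had 37.5 and 89.3 CPM in NSC IPs, against 7.54, 6.88 and 6.17 CPM in SVZ controls (3.21 ± 0.43, adjusted p = 0.000364). Cxadr was lower, with 5.31 and 6.98 CPM in NSC IPs, against 17.5, 37.9 and 30.1 CPM in SVZ controls (-2.21 ± 0.39, adjusted p = 0.00192). L1cam leaned the same way, with 52.3 and 42.4 CPM in NSC IPs, against 79.3, 80.5 and 103.1 CPM in SVZ controls (-0.89 ± 0.30, adjusted p = 0.0529). It passed in DESeq2 (0.0169), with RLE factors (0.0422), with no filter (0.0376) and with expected counts (0.0235). The 10 neuroblast genes were among those above the control here too, 8 of 10 higher, beside 9 of 10 stem cell genes. The 8 astrocyte genes summed to 8188 to 10290 CPM in NSC IPs, against 2116 to 3043 CPM in SVZ controls. Oligodendrocyte genes summed to 3105 to 3547 CPM in NSC IPs, against 6556 to 8320 CPM in SVZ controls. The part of these genes in the members' values was not tested. Within the shared second index 4 members were higher and 5 lower.

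In the Neuron IPs 27.4% of all genes were called, 11.6% higher and 15.7% lower, and 4 members did not overlap with the control, beside 52.6% of all genes. The 1 member called in edgeR was St8sia2, with 2.05 CPM (25 counts) and 0 counts in Neuron IPs, against 5.10, 10.7 and 2.05 CPM in OB controls. The groups overlapped, and the change of -2.50 ± 0.82 (adjusted p = 0.0339) lost the call without Neuron replicate 2 (0.172), without OB replicate 2 (0.127), and with the replicate number or the second index in the fit (0.0615 and 0.276). The value was -8.51 without Neuron replicate 1, which leaves a library at 0, and -1.52 without replicate 2. Neuron replicate 1 and OB replicate 3 share the second index and the name Dxc4wpi. Between these 2 libraries St8sia2 differed by 0.0023 in log2(CPM + 1), and 5 members were higher and 4 lower in Neuron. Cd24a had 67.0 and 53.3 CPM in Neuron IPs, above 39.3, 32.7 and 14.5 CPM in OB controls, with 1.06 ± 0.41 (adjusted p = 0.0642; 0.00278 with no filter and 0.0395 without OB replicate 1). Cxadr had 16.2 and 18.9 CPM in Neuron IPs, both below the 28.7, 38.7 and 25.6 CPM of OB controls (-0.82 ± 0.35, adjusted p = 0.0882; 0.0404 in DESeq2). Prokr2 had 24.3 and 23.4 CPM in Neuron IPs, against 22.2, 32.5 and 25.3 CPM in OB controls, within the range of the controls (-0.16 ± 0.58). St8sia4 had 17.4 and 19.9 CPM in Neuron IPs, both below the 27.3, 33.2 and 31.2 CPM of OB controls (-0.71 ± 0.38, adjusted p = 0.166).

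The controls themselves differed by tissue. In OB controls 9 oligodendrocyte genes summed to 1120 to 2089 CPM, against 6556 to 8320 CPM in SVZ controls. The 10 neuroblast genes summed to 1111 to 1668 CPM in OB, against 563 to 691 CPM in SVZ controls. For 7 genes of mitral and tufted cells, neurons of the bulb, these sums were 641 to 815 and 178 to 217 CPM. The part of these genes in the members' values was not tested. OB against SVZ had St8sia4 and Prokr2 higher and St8sia2 and L1cam lower, where 11.8% of all genes were called, 5.65% higher and 6.12% lower, and 6 members did not overlap, beside 31.1% of all genes. St8sia4 had 27.3, 33.2 and 31.2 CPM in OB controls, against 14.4, 12.2 and 10.3 CPM in SVZ controls (1.31 ± 0.34, adjusted p = 0.0172), and Prokr2 22.2, 32.5 and 25.3 CPM in OB controls, against 2.13, 8.26 and 4.16 CPM in SVZ controls (2.45 ± 0.59, adjusted p = 0.0107). St8sia2 had 5.10, 10.7 and 2.05 CPM in OB controls, against 24.2, 28.2 and 30.9 CPM in SVZ controls (-2.23 ± 0.62, adjusted p = 0.0268), and L1cam 35.4, 44.6 and 61.8 CPM in OB controls, against 79.3, 80.5 and 103.1 CPM in SVZ controls (-0.89 ± 0.26, adjusted p = 0.0341). None of the 4 groups of values overlapped, yet the number called fell to 0 without SVZ replicate 3, to 1 without SVZ replicate 2 and to 2 without OB replicate 1 or 2. Without SVZ replicate 3 the adjusted p were 0.0541 for Prokr2, 0.0738 for St8sia2, 0.0797 for St8sia4 and 0.136 for L1cam. Within the 1 second index shared by both tissues, with 1 library each, 3 members were higher and 6 lower in OB.

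**Figure D3:**
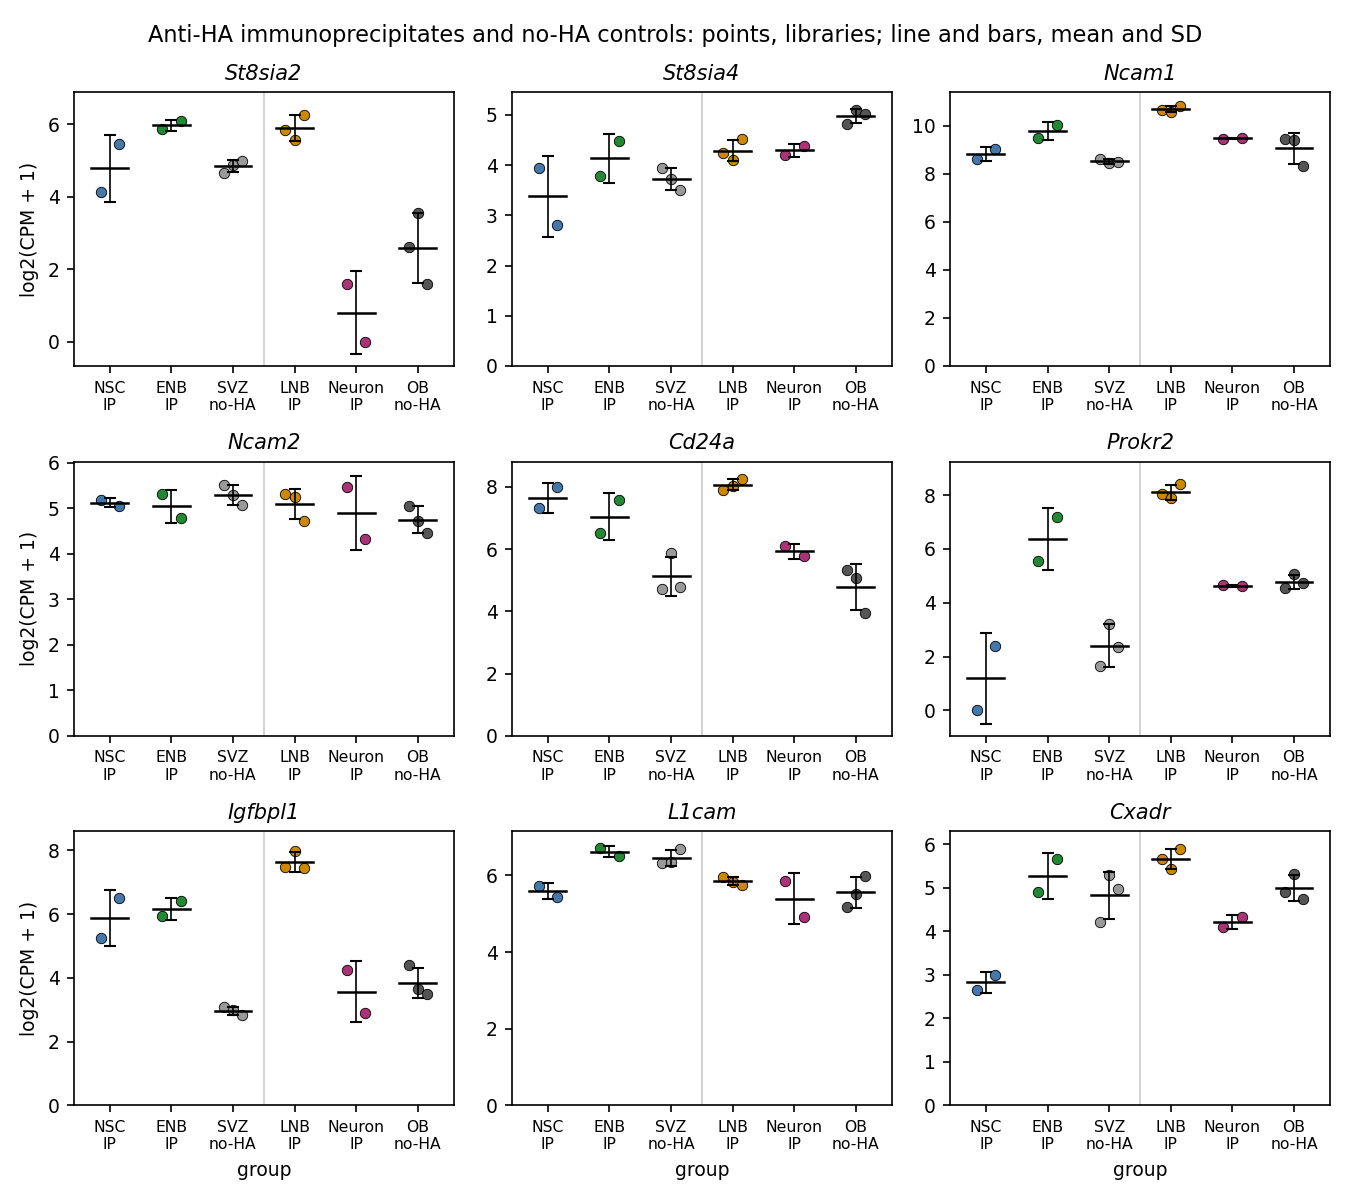
Level of each gene in the anti-HA precipitates and no-HA controls, as log2(CPM + 1), with the SVZ groups left of the line and the OB groups right of it. Points are libraries, the line is the mean and the bars the SD. Igfbpl1 and Cd24a lie above the control in NSC, ENB and LNB, and St8sia4, Ncam2 and L1cam passed against the control in no stage in the main edgeR fit. L1cam passed lower in NSC in DESeq2 (adjusted p = 0.0169) and under some edgeR alternatives.

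Between stages of ribosome-bound mRNA, ENB against NSC had 2 members higher, where 8.28% of all genes were called, 3.44% higher and 4.85% lower, and 5 did not overlap, beside 51.9% of all genes. Prokr2 had 45.6 and 145 CPM in ENB IPs, against 0 and 4.24 CPM in NSC IPs, a log2 change of 5.43 ± 0.81 (adjusted p = 0.00231). The call held whichever library was left out, but the value was 12.58 without NSC replicate 2, which leaves a library at 0, and 4.36 without ENB replicate 2. Cxadr had 28.7 and 49.2 CPM in ENB IPs, against 5.31 and 6.98 CPM in NSC IPs, with 2.66 ± 0.41 (adjusted p = 0.00231). The SVZ controls had 17.5, 37.9 and 30.1 CPM of Cxadr. Its ENB IPs did not pass against them in edgeR, and its NSC IPs lay below them. L1cam and Ncam1 were higher in both ENB IPs than in both NSC IPs but missed the threshold, with 1.05 ± 0.32 (adjusted p = 0.053; 0.0126 in DESeq2) and 0.96 ± 0.33 (adjusted p = 0.0772; 0.00996 in DESeq2). Cd24a and Igfbpl1, which had risen in total mRNA, changed by -0.56 ± 0.45 and 0.17 ± 0.45 with overlapping groups, and St8sia2 by 1.06 ± 0.71. Of 9 oligodendrocyte genes 3 were higher, and the 9 summed to 7202 to 7532 CPM in ENB IPs, against 3105 to 3547 CPM in NSC IPs. The SVZ controls had 6556 to 8320 CPM of them, a range that holds the ENB IPs. Astrocyte genes summed to 2994 to 3121 CPM in ENB IPs, against 8188 to 10290 CPM in NSC IPs and 2116 to 3043 CPM in SVZ controls, with 5 of 8 lower in ENB. Their part in the members' values was not tested. The index shared by the IPs holds both NSC libraries but only ENB replicate 2. It gave 7 of 9 members higher in ENB, with a median of 1.10. For the 5 members without overlap the direction there is no separate result.

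LNB against ENB had 1 member called, Igfbpl1, where 12.9% of all genes were called, 6.81% higher and 6.05% lower, and 5 did not overlap, beside 56.4% of all genes. It had 175, 254 and 172 CPM in LNB IPs, against 59.8 and 83.2 CPM in ENB IPs, with no overlap and a change of 1.49 ± 0.42 (adjusted p = 0.0291). ENB and LNB IPs of replicates 1 and 2 come from the same animals, and with the animal as a block the change was 1.58 (adjusted p = 0.0626), and with the second index as a term 1.53 (adjusted p = 0.0733). The 1 index shared by both groups holds only ENB replicate 1 on the ENB side. Within it 7 of 9 members were higher, with a median of 0.76. For the 5 members without overlap the direction there is no separate result. Leaving out any 1 of the 5 libraries gave adjusted p of 0.0519 to 0.206. Prokr2, Cd24a and Ncam1 were also higher in all LNB IPs than in both ENB IPs, by 1.54 ± 0.60, 0.94 ± 0.42 and 0.89 ± 0.30 (adjusted p = 0.1, 0.155 and 0.0624). L1cam was lower in all LNB IPs, with 61.4, 56.3 and 52.5 CPM in LNB IPs, against 105 and 90.5 CPM in ENB IPs (-0.78 ± 0.28, adjusted p = 0.0792). The tissue differs at this step, and all 9 oligodendrocyte genes were lower, summing to 793 to 1000 CPM in LNB IPs, against 7202 to 7532 CPM in ENB IPs. These 9 genes summed to 1120 to 2089 CPM in OB controls and 6556 to 8320 CPM in SVZ controls. L1cam was also lower, by 0.89 on the log2 scale, and Prokr2 higher, by 2.45, in OB than in SVZ controls, as given above. The part of the oligodendrocyte genes in the L1cam values was not tested.

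Neuron against LNB had 6 members lower, where 4.13% of all genes were called, 0.378% higher and 3.75% lower, and 6 did not overlap, beside 43.5% of all genes. Members called higher numbered 0 in edgeR (0 also in DESeq2 and 0 at an unadjusted p under 0.05). St8sia2 had 2.05 and 0 CPM in Neuron IPs, against 55.9, 46.3 and 76.0 CPM in LNB IPs, with -5.82 ± 0.89 (adjusted p = 0.00201). Igfbpl1 had 18.0 and 6.42 CPM in Neuron IPs, against 175, 254 and 172 CPM in LNB IPs, with -4.04 ± 0.49 (adjusted p = 0.000526). Both calls held whichever library was left out, but the St8sia2 value was -11.85 without Neuron replicate 1, which leaves a library at 0, and -4.85 without replicate 2. Prokr2 changed by -3.54 ± 0.66 (adjusted p = 0.00627), Cd24a by -2.16 ± 0.45 (adjusted p = 0.0117), Ncam1 by -1.22 ± 0.31 (adjusted p = 0.0342) and Cxadr by -1.501 ± 0.36 (adjusted p = 0.0258). Without Neuron replicate 2 only 2 members were called, with adjusted p of 0.0621 for Prokr2 and 0.114 for Cd24a. Ncam1 missed without any 1 of the 5 libraries (0.0681 to 0.178) and Cxadr without LNB replicate 1 or 3 or either Neuron library (0.0747 to 0.105). Cxadr had 16.2 and 18.9 CPM in Neuron IPs, against 49.1, 42.0 and 58.0 CPM in LNB IPs, while its total mRNA changed by 0.03. Both Neuron IPs lay below the 28.75, 38.73 and 25.63 CPM of OB controls, and its LNB IPs did not pass against these controls in edgeR. Neuron and LNB IPs share no second index, so no value within an index can be given. With the index as a term, estimated through the other precipitates, St8sia2, Prokr2 and Igfbpl1 stayed called (adjusted p = 0.0471, 0.0262 and 0.0179), and Ncam1, Cd24a and Cxadr missed (0.374, 0.112 and 0.0668). Astrocyte genes summed to 283 to 413 CPM in Neuron IPs, against 1193 to 1609 CPM in LNB IPs, and all 8 were lower; their part was not tested.

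**Figure D4:**
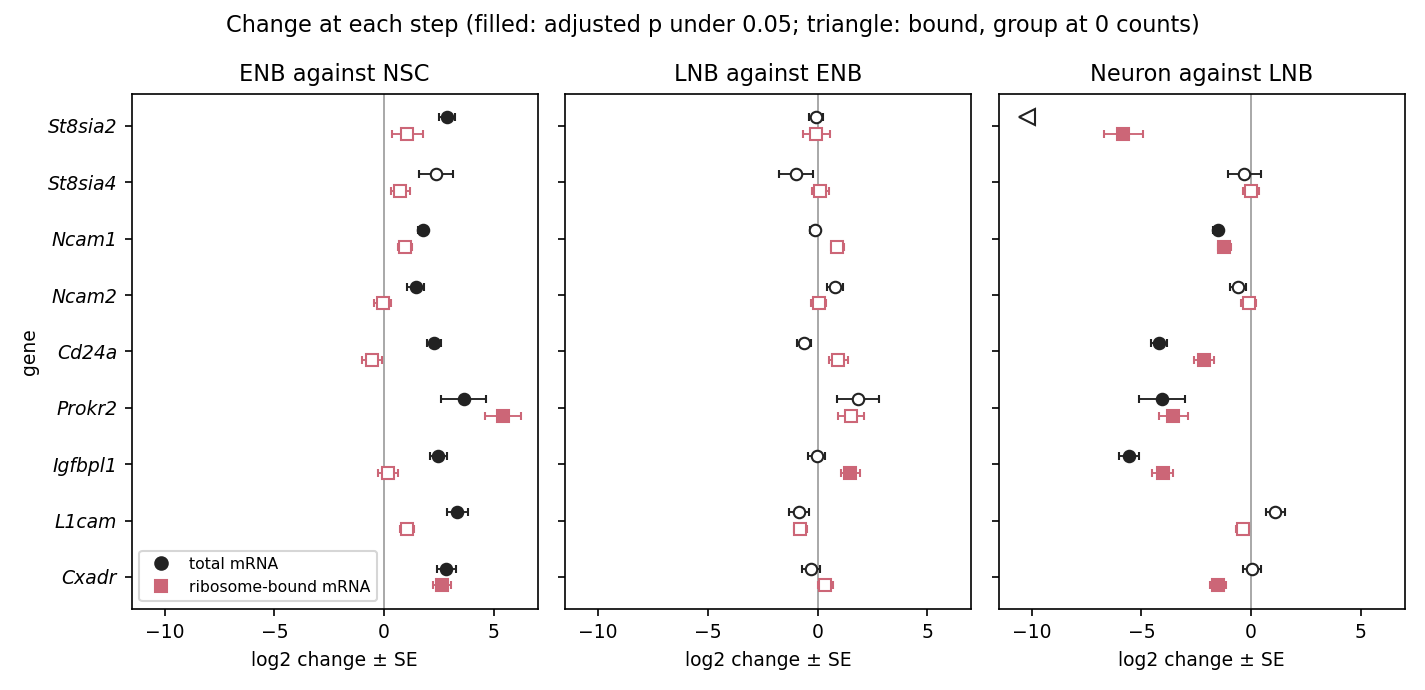
Log2 change of each gene at the 3 steps, with the SE, in total mRNA (black circles) and ribosome-bound mRNA (red squares). Filled symbols passed the test. The open triangle is the bound for St8sia2, which had 0 counts in Neuron total mRNA, taken from the LNB mean and a floor of 3 counts. At the first step all 9 total mRNA values lie above 0, at the last step St8sia2, Ncam1, Cd24a, Prokr2 and Igfbpl1 lie below 0 in both kinds of mRNA.

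Whether a step differed between ribosome-bound and total mRNA was tested by an interaction over 21 libraries. The no-HA controls were not in this fit, so signal that untagged tissue gives in the IPs was not taken into account. At ENB against NSC 1 member passed, where 2.81% of all genes were called, 1.49% higher and 1.32% lower: Cd24a, with a difference of -2.66 ± 0.51 between the log2 changes (adjusted p = 0.011). It rose in total mRNA and was no higher in ENB IPs, at 89.9 and 189 CPM, than in NSC IPs, at 158 and 252 CPM. Its level in SVZ controls was 25.6, 57.1 and 26.7 CPM. The pattern was not confined to Cd24a. The 10 migrating neuroblast genes summed to 3847 to 4770 CPM in NSC and 12470 to 13690 CPM in ENB total mRNA. In IPs their sums were 1822 to 2733 CPM in NSC and 1716 to 3928 CPM in ENB. The call of Cd24a was lost without NSC IP replicate 2 (0.0793), without ENB IP replicate 1 (0.0819) and with the second index as a term (0.105). Igfbpl1 and L1cam had differences of -2.13 ± 0.66 and -2.13 ± 0.63 (adjusted p = 0.0919 and 0.0782; 0.0306 and 0.0249 in DESeq2). L1cam had 105 and 90.5 CPM in ENB IPs, near the 79.3, 80.5 and 103.1 CPM of SVZ controls. At LNB against ENB 0 members passed in edgeR, where 6.15% of all genes were called, 1.89% higher and 4.26% lower, with 3 at an unadjusted p under 0.05 (Ncam1, Cd24a, Igfbpl1) and 2 in DESeq2 (Ncam1, Cd24a). Both passed without ENB IP replicate 2 (0.0415 and 0.0426) or without LNB total replicate 2 (0.0311 and 0.0331). With LNB total replicate 2 alone, and with the animal as a block, 0 of the 9 passed.

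At Neuron against LNB 2 members passed, where 3.15% of all genes were called, 1.46% higher and 1.69% lower. Cd24a fell less in IPs than in total mRNA, a difference of 2.05 ± 0.48 (adjusted p = 0.0282), and its Neuron IPs lay above all 3 OB controls without passing against them in edgeR, as given above. The 10 migrating neuroblast genes summed to 5471 to 12570 CPM in LNB and 1503 to 1683 CPM in Neuron total mRNA. In IPs their sums were 4763 to 6099 CPM in LNB and 2660 to 2665 CPM in Neuron, also a smaller fall. St8sia2 had an adjusted p of 0.0351, but its Neuron total libraries were all at 0, so the fitted difference is no measure of size. Both calls were lost without any 1 of the LNB IP libraries, LNB total replicate 1 or 2, Neuron total replicate 1 or 2 or Neuron IP replicate 1, and with the replicate number as a block. The call of Cd24a was also lost without Neuron IP replicate 2, and its adjusted p over these libraries was 0.0536 to 0.128. Without Neuron IP replicate 1 the value of St8sia2 had an adjusted p of 1. With LNB total replicate 2 alone the difference of Cd24a was 2.47. That library had the highest LNB total level of both genes, so this value is no separate support. Cxadr (-1.53 ± 0.55) and L1cam (-1.499 ± 0.59) had differences in the other direction that missed the threshold (adjusted p = 0.136 and 0.172).

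The enzymes around polysialic acid were followed by list. Sialic acid supply was given by 6 genes, among them Gne, the entry enzyme of sialic acid synthesis, and Cmas, which activates it. In total mRNA 0 of the 6 passed at any of the 3 steps, with 1 at an unadjusted p under 0.05 at each, and DESeq2 called 0, 0 and 1. In ribosome-bound mRNA 0 passed as well, with 1, 0 and 0 at an unadjusted p under 0.05 and 0 in DESeq2. Gne differed between Neuron and LNB total mRNA by 1.52 ± 0.55 (adjusted p = 0.0868). Of 15 other sialyltransferases and sialidases tested in total mRNA, 3 were higher and 3 lower in ENB than in NSC. The lysosomal sialidase gene Neu1 rose by 1.39 ± 0.27 and St8sia3, a sialyltransferase of glycolipids and glycoproteins in brain, by 1.65 ± 0.40, while Neu2, the cytosolic sialidase, fell by 4.38 ± 0.97 on the log2 scale and St3gal4 by 1.48 ± 0.31 (adjusted p = 0.00953, 0.0246, 0.0171 and 0.0126). In LNB against ENB 1 was higher, the ganglioside enzyme gene St8sia5 (3.04 ± 0.67, adjusted p = 0.0323). It had 25.4, 7.31 and 45.8 CPM in LNB replicates 1 to 3, and with replicate 2 alone the change was 1.28 (adjusted p = 0.977). In Neuron against LNB St6gal1, which adds terminal sialic acid to N-glycans, was lower (-3.55 ± 0.53, adjusted p = 0.00134) and St3gal5, the GM3 synthase gene, higher (2.24 ± 0.36, adjusted p = 0.0019). With LNB replicate 2 alone St6gal1 stayed called (-3.12, adjusted p = 0.0185) and St3gal5 missed (1.67, adjusted p = 0.0646). St6gal1 was lower in Neuron IPs too (-1.29 ± 0.32, adjusted p = 0.0332), the 1 call of 16 genes there. In the other ribosome-bound steps 0 of 16 passed in edgeR in ENB against NSC (4 at an unadjusted p under 0.05, 2 in DESeq2). In LNB against ENB 1 was higher and 3 lower, with St8sia3 at -1.68 ± 0.19 and St8sia5 at 1.95 ± 0.48. The untagged controls differed as well: St8sia3 had 74.3, 76.2 and 57.0 CPM in OB controls, against 486, 465 and 449 CPM in SVZ controls (-2.75 ± 0.19, adjusted p = 7.38e-08). St8sia5 had 29.5, 35.3 and 30.1 CPM in LNB IPs, and 31.0, 30.4 and 25.1 CPM in OB controls, against 31.0, 21.4 and 10.3 CPM in SVZ controls.

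Other immunoglobulin adhesion genes were followed by list as well. In ENB against NSC total mRNA 1 of 17 was higher, Cntn2 (2.57 ± 0.49, adjusted p = 0.00879), the axonal glycoprotein TAG-1, and 2 were lower, Alcam (-3.19 ± 0.69, adjusted p = 0.0154) and Lsamp (-2.11 ± 0.46, adjusted p = 0.0166). Their median change was -0.09, beside 2.48 for the 9 members and -0.01 for all genes. In LNB against ENB Lsamp and Cadm2 were higher (2.11 ± 0.46 and 1.29 ± 0.30, adjusted p = 0.032 and 0.0393). With LNB replicate 2 alone the changes were 0.66 and 0.67, and 0 of 17 were called. In Neuron against LNB 4 of 17 were higher, Opcml (3.18 ± 0.80), Nfasc (2.08 ± 0.57), Cadm2 (1.12 ± 0.30) and Negr1 (1.11 ± 0.29), with adjusted p of 0.0216 to 0.0299, where 5 of the 9 members were lower. With LNB replicate 2 alone 1 of 17 was called, Cadm2 (1.79, adjusted p = 0.0134).

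Partners of Prokr2 and Igfbpl1 formed the last lists. The 3 other prokineticin genes together reached at most 8.10 CPM in any library, and the ligand gene Prok2 was at 0 in all ENB and LNB total libraries. In bulb tissue it was present, with means of 7.03 CPM in OB controls, 4.49 in LNB IPs and 4.65 in Neuron IPs. The SVZ controls had 0.593 CPM and Neuron total mRNA 0.961 CPM of Prok2. Among 9 genes of the insulin-like growth factor system tested, the receptor gene Igf1r was higher in ENB than in NSC total mRNA (1.01 ± 0.29, adjusted p = 0.0445) and lower in Neuron than in LNB (-1.59 ± 0.29, adjusted p = 0.00412), the same directions as Igfbpl1, and the second call was kept with LNB replicate 2 alone (-1.95, adjusted p = 0.00364). Igfbp2 was higher in LNB than in ENB (7.44 ± 1.09, adjusted p = 0.00698) and Igfbp5 lower (-1.87 ± 0.37, adjusted p = 0.0252). Igfbp2 had 660.0, 72.5 and 1317 CPM in LNB replicates 1 to 3, against 2.07, 5.38 and 4.37 CPM in ENB, and the summed list 902, 260.5 and 1893 CPM in LNB, against 389.9 to 426.8 CPM in ENB. The LNB library with the least of the astrocyte genes was again replicate 2, and with it alone neither gene passed (4.28 for Igfbp2 and -2.37 for Igfbp5, adjusted p = 0.135 and 0.163). Igf1, Igf2 and Igfbp2 were higher in LNB than in ENB IPs, with 3.80 ± 0.61, 1.59 ± 0.44 and 3.05 ± 0.44 (adjusted p = 0.000469, 0.0244 and 0.000202). All 3 were also higher in OB than in SVZ controls, with 4.78 ± 0.53, 1.24 ± 0.37 and 3.52 ± 0.38 (adjusted p = 1.22e-05, 0.0365 and 9.27e-06). None passed against the OB control in LNB IPs in edgeR, with -0.86 ± 0.43 for Igf1, -0.88 ± 0.36 for Igf2 and -0.49 ± 0.34 for Igfbp2 (adjusted p = 0.216, 0.134 and 0.375).

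Across the 27 libraries the members fell into patterns rather than 1 profile. Correlations of log2(CPM + 1) are given as a description, since libraries share tissue, sorting and depth, and total mRNA and precipitates were scaled apart. Cd24a and Igfbpl1 were most alike (Pearson's r = 0.945), followed by Ncam1 with Igfbpl1 (0.831), Ncam1 with Prokr2 (0.831) and St8sia2 with Igfbpl1 (0.804). L1cam was most like Ncam2 (0.721) and Cxadr (0.697), and its lowest value was with Cd24a (-0.108). The 2 polysialyltransferases had r = 0.231. Over the 12 total libraries alone they had r = 0.45, and St8sia2 with Igfbpl1 had 0.983. Among 13201 genes with a mean of at least 5 CPM, those most like St8sia2 were Pou3f4 (0.903), Zfp113 (0.902) and Fnbp1l (0.898), and those most like St8sia4 were Kmt5b (0.787), Kmt2e (0.746) and Dscaml1 (0.746). For Ncam1 they were Dusp4 (0.941), Mtss1 (0.934) and Gm26735 (0.925), and for Ncam2 Nmnat2 (0.828), Porcn (0.785) and Sema7a (0.779). Cd24a was closest to Gng2 (0.971), Gm17750 (0.965) and Jpt1 (0.963), Igfbpl1 to Dpysl3 (0.961), Cemip2 (0.951) and Tubb2b (0.949), and Prokr2 to Zfp618 (0.923), Edaradd (0.859) and Jarid2 (0.856). L1cam was closest to Mapk10 (0.858), A330102I10Rik (0.844) and Cacna1b (0.839), and Cxadr to Robo2 (0.864), Nav1 (0.856) and Grik3 (0.855).

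**Figure D5:**
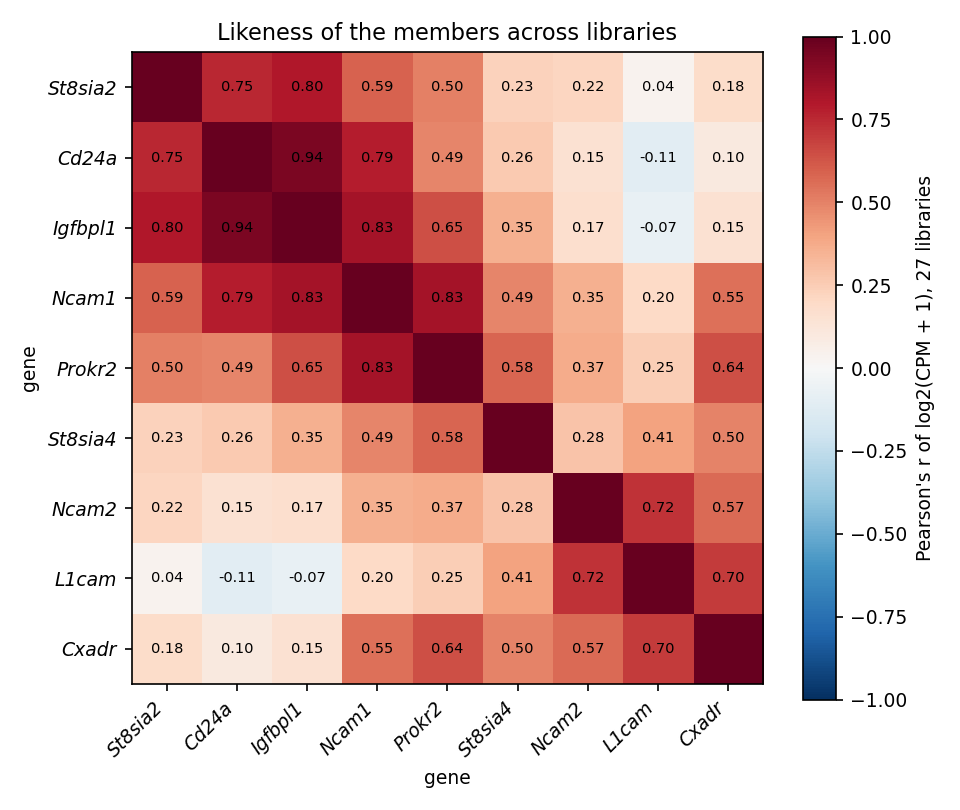
Pearson's r of log2(CPM + 1) between the 9 genes over 27 libraries, from blue (negative) to red (positive). St8sia2, Cd24a, Igfbpl1 and Ncam1 form a block with r of at least 0.59, and Ncam2, L1cam and Cxadr a second block with r of at least 0.566.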

How the data were processed

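Raw counts per gene, RSEM expected counts and TPM were used as deposited by the authors for 27 libraries in 10 groups. Per the labels, cDNA was made with Smart-seq2 from poly(A) RNA. The submitters' processing notes name RSEM 1.2.21, Bowtie2 2.2.6 and GRCm38; the tool behind the raw counts and its use of strand are not given in the sources used here, so reads of overlapping genes cannot be told apart. The expected counts deposited by the authors summed to 1.85 times the raw counts, and 92 TPM rows without a gene ID were not used. Every test used edgeR 4.0.16 in R 4.3.3 on the raw counts: TMM scale factors, filterByExpr, the quasi-likelihood F test and Benjamini-Hochberg adjustment over all genes tested, with a threshold of 0.05. Total mRNA (17592 genes), precipitates with controls (19066) and the interaction of both (19913) were fitted apart. SE is the log2 change divided by the square root of F. Members and lists were chosen with earlier results of these data known; all members are described, and at most 4 genes a list are named, those with the smallest adjusted p. The 3 most alike genes were those with the highest Pearson's r of log2(CPM + 1).

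The 2 Neuron IP libraries carry the total mRNA sample type in 1 label field and were grouped by title. The libraries of a group carry different animal numbers in the labels, so p-values measure the spread between animals or pools of animals together with technical spread. Replicates had Spearman correlations of 0.85 to 0.988 and no identical pair. ENB and LNB IPs of replicates 1 and 2 share animals under the same number, so these numbers pair them, although their deviations from the group means hardly correlated (r = 0.0911 and -0.013). In total mRNA, ENB replicates 2 and 3 share their animals with LNB replicates 3 and 2 (r = 0.0462 and 0.0528), so the animal, and not the number, pairs them. All other groups share only a number (r = -0.114 to 0.0656 for same numbers in total mRNA). Alternatives were RLE factors, no filter, DESeq2 1.42.0, expected counts rounded to whole numbers, a replicate block by number or by animal, the second index as a term and leaving out each library. The fits were checked on simulated data: for ENB against NSC total mRNA, 20 of 100 genes changed by 1.5 on the log2 scale and 65 of 100 changed by 3 were recovered. For the same step in IPs 47 and 92 of 100 were recovered, and for its interaction 6 and 49 of 100. A missed call in the interaction is therefore weak evidence of no difference.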

Additional observations from a re-analysis of the deposited data

Results flagged for a closer look

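For 3 values the step differed between ribosome-bound and total mRNA by the interaction test, a fit without the no-HA controls. Cd24a differed by -2.66 on the log2 scale at ENB against NSC (adjusted p = 0.011 in edgeR). At Neuron against LNB, Cd24a differed by 2.05 (adjusted p = 0.0282). The mean sums of the migrating neuroblast genes also rose more at the first step, and fell more at the last, in total mRNA than in IPs. These 2 directions are therefore not particular to Cd24a. St8sia2 had a fitted difference of 7.71 at Neuron against LNB (adjusted p = 0.0351), which is no measure of size because its Neuron total libraries were all at 0 counts.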

How the results depend on the processing

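Of 69 member values called in the main test or under an alternative, 854 alternative values were computed: 719 kept direction and call, 94 lost the call, 41 gained it and 0 changed sign. Another 66 values were called under no setting, and 83 of their 883 alternatives had the other sign. Counts of members called follow, with the main count first. For ENB against NSC IPs (2), no filter gave 4 and DESeq2 4. For LNB against ENB IPs (1), RLE gave 2, no filter 4, DESeq2 3, expected counts 2, the replicate block by number 2, the replicate block by animal 0, and leaving out a library 0 to 0. For Neuron against LNB IPs (6), the index term gave 3 and leaving out a library 2 to 5. Against the controls, NSC (3) had 5 with no filter, ENB (4) had 2 with the index term and 0 to 4 without a library, and Neuron (1) had 2 with no filter, 2 in DESeq2, 0 with the replicate block, 0 with the index term and 0 to 2 without a library. OB against SVZ (4) had 0 to 4 without a library. In total mRNA the counts without a library were 6 to 7 for ENB against NSC (8), 0 to 0 for LNB against ENB (0), 4 to 5 for Neuron against LNB (5) and 6 to 7 for Neuron against NSC (6). For the interactions, ENB against NSC (1) had 3 in DESeq2, 0 with the index term and 0 to 1 without a library; LNB against ENB (0) had 2 in DESeq2 and 0 to 2 without a library; Neuron against LNB (2) had 0 with the replicate block and 0 to 2 without a library. The replicate block by number changed no other member count by over 1.5 times (7 for ENB against NSC total mRNA). The index term could not be run for the last interaction.

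Over all genes, DESeq2 called more: 3566 against 1772 for ENB against NSC total mRNA, 1993 against 663 for LNB against ENB, 4155 against 2580 for Neuron against LNB, 2954 against 1579 and 1820 against 787 for the first and last IP step, 859 against 290 for ENB and 3063 against 1918 for LNB over control, and 1629, 2333 and 1841 against 559, 1224 and 627 for the interactions. No filter gave 2400, 1480 and 636 for the first and last IP step and ENB over control. The replicate block by number gave 205 for LNB against ENB total mRNA (452 by animal), 193 for ENB over control, 285, 257 and 145 for the interactions, and by animal 1217 (main 2452) and 397 for LNB against ENB IPs and interaction. The index term gave 155 for LNB against ENB total mRNA, 1176 (main 2925) for NSC over control, and 43 and 449 for the first 2 interactions. LNB total replicate 2 alone, chosen after seeing the data, gave 8 for LNB against ENB, 1474 for Neuron against LNB and 159 for the LNB against ENB interaction. Leaving out a library gave 721 to 892 for ENB against NSC, 96 to 1643 for LNB against ENB, 1565 to 2337 for Neuron against LNB and 2605 to 3684 (main 4175) for Neuron against NSC in total mRNA; 354 to 962, 1271 to 1621 and 347 to 1199 for the IP steps; 1050 to 3372, 1 to 224, 95 to 1842 and 2593 to 4772 (main 5221) for NSC, ENB, LNB and Neuron over control; and 56 to 459, 321 to 2302 and 78 to 845 for the interactions. RLE factors moved the share of calls that were higher: 48.4% against 36.3% with TMM for Neuron against LNB total mRNA, 46.5% against 69.6% for LNB over control and 40.2% against 52.9% for LNB against ENB IPs. The cause of these changes was not tested. At 0 counts in a library (St8sia2 in Neuron, Prokr2 in 1 NSC IP and 1 Neuron library) the fitted change is no measure of size at this depth.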
